A study of Homo sapiens with 10 samples.

Results

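The 4 human genes NSD1, NSD2, NSD3 and SETD2, which encode methyltransferases acting on lysine 36 of histone H3 (H3K36), were followed through peaks of DNA methylation called in HEK293T cells. The family was selected on these same data: NSD2 stood out with 12 peaks in one knockout list and 0 in the WT list, and its relatives were taken with it. Peaks overlapping a gene body or its 2 kb flanks were counted as belonging to that gene. By this rule the 4 genes, of 19974 protein-coding genes in the annotation, held 155 of the 284960 peaks in 5 lists. Since peak numbers chose the members, every number of peaks below is a description, and no test was made of it.

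HEK293T is an established line from human embryonic kidney that carries the SV40 large T antigen. Methylated DNA immunoprecipitation (MeDIP-seq) was run with an antibody to 5-methylcytosine, and each of 5 conditions had 1 immunoprecipitated and 1 input library. EV is not spelled out in the labels; KD is named in the series' design as the knockdown KCNQ1OT1_K KD, and its peak list is called K-KD below. WT carries no other label, and the lines labelled K rep KO or K non-rep KO are a pair of knockouts whose names are not explained further. KCNQ1OT1 is a long noncoding RNA of an imprinted domain. No agent, time or clone number was labelled, and neither the cell identity nor the knockdown and knockouts could be checked from peaks in these genes. There were no replicates of any condition, so ratios are given with exact 95% intervals (Clopper-Pearson) that cover counting error alone.

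The lysine-36 mark is laid down in steps by different enzymes. NSD1, NSD2 and NSD3 add the mono- and dimethyl marks, which spread over broad domains within and between genes, whereas SETD2 travels with elongating RNA polymerase II and adds the trimethyl mark over transcribed gene bodies. Both marks are tied to DNA methylation, since DNMT3A and DNMT3B, the de novo DNA methyltransferases, bind methylated H3K36 through their PWWP domains. The peaks described here measure methylation of the DNA of the enzymes' own genes, and neither their RNA nor H3K36 methylation was measured.

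The lists differed in length before any gene was considered. EV held 87815 peaks, K rep KO 59098, K-KD 53919, K non-rep KO 53396 and WT 30732. WT stood apart, with the fewest peaks and the widest, at a median of 748 bp against 505 to 522 bp in the other lists. From the values the peak caller wrote, the depth of the immunoprecipitated library relative to EV was lowest in K non-rep KO, at 0.750, with 0.885 in WT, 0.899 in K rep KO and 0.943 in K-KD. Because of these differences each ratio of peaks in the members is set beside the same ratio over all protein-coding genes. The part that list length and depth have in the values of single genes was not tested.

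Together the 4 genes held 55 peaks in EV, 39 in K rep KO, 26 in K non-rep KO, 25 in K-KD and 10 in WT. EV was highest and WT lowest, and NSD1 supplied 8 of the 10 peaks in WT. With every list held to its 30732 best peaks by q, a cut chosen after the data were seen, K rep KO was highest with 23. EV then held 21, K-KD 14, K non-rep KO 12 and WT 10. Per 100 kb the 4 regions held 9.89 peaks in EV, 7.01 in K rep KO, 4.67 in K non-rep KO, 4.49 in K-KD and 1.80 in WT. Over all protein-coding genes the densities were 4.19, 2.63, 2.38, 2.46 and 1.10 in the same order. Summed, the members were denser in peaks than coding genes as a whole in all 5 lists. Single members were not: NSD3 was above the coding density in EV alone, SETD2 was below it in K-KD, and NSD2 had no peak in WT. The 4 enzymes' genes lie on 4 different chromosomes.

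**Figure D1:**
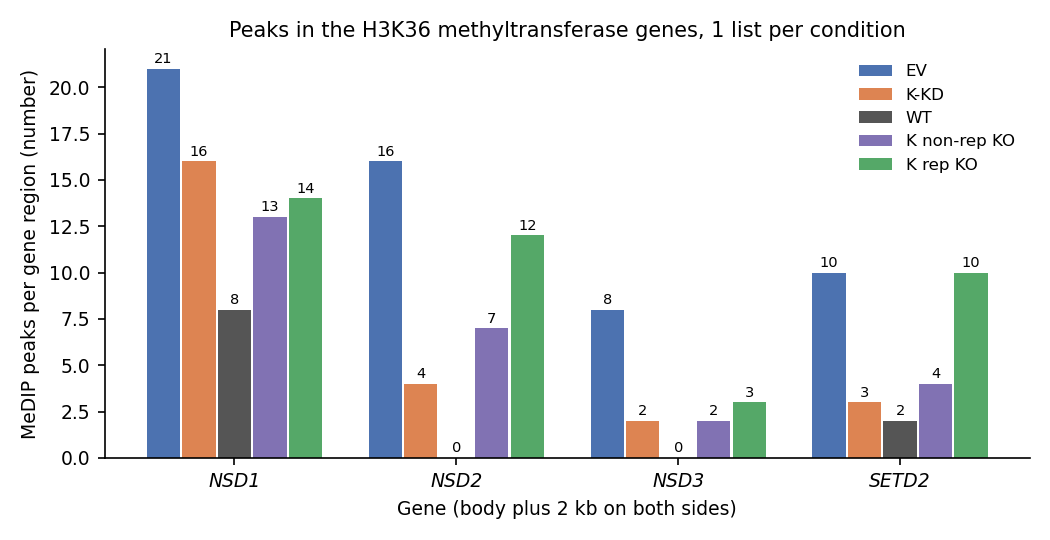
Number of peaks (vertical axis) in each of the 4 genes with 2 kb flanks, with a colour for each of the 5 lists and no replicates. NSD1 has peaks in all 5 lists, while NSD2 and NSD3 stand at 0 in WT.

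SETD2, the enzyme of the trimethyl mark (gene ID 29072), lies on the minus strand of GRCh38 chromosome 3 from 47016436 to 47164840, a body of 148405 bp. It held 10 peaks in EV, 10 in K rep KO, 4 in K non-rep KO, 3 in K-KD and 2 in WT. Thus EV and K rep KO had equal numbers and the other 3 lists were low. Peaks covered 3.73% of the region in EV, 3.05% in K rep KO, 1.39% in K non-rep KO, 1.33% in K-KD and 1.22% in WT. Among 2050 coding genes of like length (regions of 100 to 200 kb), 90.1% had fewer peaks than SETD2 in K rep KO and 61.8% had fewer in K-KD.

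The positions of the peaks within SETD2 also differed between lists. Of the peaks in K rep KO, 9 lay in the part of the gene nearer the start, divided at the midpoint, and 1 in the part nearer the end. In EV these numbers were 7 and 3, and in K-KD 0 and 3. None of the 3 K-KD regions of SETD2 was shared by K rep KO, against 47.5% of K-KD regions in the genome. Of the 10 K rep KO regions 5 were shared with EV, against 58.9% in the genome. The final 34.3 kb, counted from the lower edge of the flank, held no peak in any list. Both WT peaks lay in the part nearer the start and both were met by K rep KO peaks. One, at 47154209 to 47154978, had the authors' fold enrichment over background of 7.79 in WT and 2.53 in K rep KO. The same DNA was thus called in both lists at unlike folds. At the summit 18 reads lay over a background of 1.44 in WT, and 13 reads over 4.54 in K rep KO.

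No list had a peak at the start of SETD2. The RefSeq start window (250 bases before to 50 after the start, GRCh38.p14) held 28 CpG dinucleotides, and the nearest peak lay 3147 bp away. The median over 22132 start windows of coding genes was 21 CpG, and 98.1% held at least 1 CG. The window is shown because it marks a CpG-rich end of the gene that was bare of peaks in all 5 lists. It is written 5′ to 3′ on the gene's own strand with every CG (the motif searched, which reads the same on both strands) in capitals.
SETD2 chr3:47164064-47164363 (minus strand): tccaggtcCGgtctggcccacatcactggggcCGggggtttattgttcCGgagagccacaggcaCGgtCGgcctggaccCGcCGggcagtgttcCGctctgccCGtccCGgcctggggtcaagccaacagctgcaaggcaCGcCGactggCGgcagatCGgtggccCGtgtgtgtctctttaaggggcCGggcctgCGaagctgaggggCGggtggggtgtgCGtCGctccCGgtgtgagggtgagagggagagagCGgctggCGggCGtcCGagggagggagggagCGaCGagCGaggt

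NSD1 (gene ID 64324), the H3K36 dimethyltransferase altered in Sotos overgrowth syndrome, lies on the plus strand of chromosome 5 from 177131798 to 177300213. Its body of 168416 bp is the longest of the 4. It held 21 peaks in EV, 14 in K rep KO, 13 in K non-rep KO, 16 in K-KD and 8 in WT. NSD1 was the member with the most peaks in every list, and 94.6% to 97.1% of coding genes of like length had fewer. Peaks covered 7.19% of the region in EV, 4.49% in K rep KO, 4.44% in K non-rep KO, 5.03% in K-KD and 3.51% in WT. None of the other members passed 2 peaks in WT.

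The NSD1 peaks formed 36 separate regions once overlapping peaks were joined, and 2 of them were present in all 5 lists. The first, at 177169994 to 177170552, had fold enrichments of 6.67 in EV, 7.44 in K rep KO, 6.01 in K non-rep KO, 4.75 in K-KD and 10.1 in WT. Its WT peak was the highest by fold of all 155 peaks in the family, with 27 summit reads over a background of 1.76. The EV peak there had more reads, 34, over a background of 4.25. The second, at 177218455 to 177219480, had folds of 7.04, 4.41, 3.19, 7.31 and 4.85 in that order. The lists that ranked high at one of these regions thus ranked differently at the other. Another 5 regions appeared in 4 lists and 20 in 1 list. Thus 5.56% were in 5 lists, 13.9% in 4 and 55.6% in 1, against 7.97%, 6.09% and 56.5% in the genome. Of the 4-list regions, the one at 177265487 to 177267106 overlaps the pseudogene PRMT1P1, and how reads were placed between it and its parent gene was not tested. WT alone had peaks at 177163214 to 177163612 (fold 6.30) and 177180147 to 177180831 (fold 6.87).

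NSD1 was the only one of the 3 matched members with a peak at a start window, and the lists differed there. RefSeq gave 5 start windows for NSD1, and the first of them, with 7 CpG, was overlapped by a peak in K non-rep KO (177131458 to 177132044, fold 5.12, −log10 q 4.92). A peak in K rep KO overlapped the same window (177131472 to 177131921, fold 3.43, −log10 q 2.18). EV, K-KD and WT had none, and their nearest peaks lay 3460, 4852 and 21734 bp away. Hence both knockout lists and none of the other 3 had the peak, in single libraries. Over all coding start windows, 4.39% held a peak in EV, 2.62% in K rep KO, 2.10% in K non-rep KO, 2.70% in K-KD and 0.705% in WT. The other 4 NSD1 windows, with 19 to 48 CpG, had no peak in any list. The window with the knockout peaks is printed beside the most CpG-dense one to show that they differ in CG content, with 52.3% and 78.7% G and C.
NSD1 chr5:177131548-177131847 (plus strand), peak in both knockout lists: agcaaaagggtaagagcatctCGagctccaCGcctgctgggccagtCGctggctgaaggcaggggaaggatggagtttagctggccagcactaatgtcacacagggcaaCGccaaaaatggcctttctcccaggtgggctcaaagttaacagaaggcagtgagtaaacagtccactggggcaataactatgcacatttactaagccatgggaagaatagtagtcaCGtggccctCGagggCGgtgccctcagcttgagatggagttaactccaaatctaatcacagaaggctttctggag
NSD1 chr5:177133523-177133822 (plus strand), no peak: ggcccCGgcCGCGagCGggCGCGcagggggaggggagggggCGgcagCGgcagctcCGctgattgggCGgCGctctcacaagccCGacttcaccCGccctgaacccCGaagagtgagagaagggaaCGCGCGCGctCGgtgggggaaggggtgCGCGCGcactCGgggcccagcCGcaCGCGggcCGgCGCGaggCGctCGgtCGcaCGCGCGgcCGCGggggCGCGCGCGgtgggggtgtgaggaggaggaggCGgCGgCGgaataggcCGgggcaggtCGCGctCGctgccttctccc

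NSD2 (gene ID 7468), the dimethyltransferase known for its translocation in multiple myeloma and as a gene of the Wolf-Hirschhorn region, lies on the plus strand of chromosome 4 from 1871393 to 1982192. It held 16 peaks in EV, 12 in K rep KO, 7 in K non-rep KO, 4 in K-KD and 0 in WT. EV and K rep KO were the high lists, K non-rep KO lay between them and K-KD, and WT was empty. With every list held to its 30732 best peaks, EV was not high. NSD2 then had 2 peaks in EV, 6 in K rep KO, 2 in K non-rep KO, 3 in K-KD and 0 in WT. A count of 0 allows up to 3 peaks by counting error. Peaks covered 8.87% of the region in EV, 2.74% in K non-rep KO, 5.90% in K rep KO and 1.64% in K-KD. Of the like-length coding genes, 43.3% also had no peak in WT, whereas 91.6% had fewer peaks than NSD2 in EV. Among 1268 coding genes with at least 10 peaks in EV, 99 (7.81%) had 0 in WT, and NSD2 was the 1 such gene of the 3 members with that many peaks. That threshold of 10 was chosen after the values were seen, and the 0 of NSD2 in WT helped choose the family.

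The peaks of NSD2 lay mostly after its midpoint in EV and K rep KO. EV had 3 peaks before the midpoint of the gene, 12 after it and 1 in the flank; K rep KO had 3, 8 and 1. In K-KD 3 lay before the midpoint and 1 after it, and K non-rep KO had 3, 3 and 1. Over 1681 coding genes the share of peaks before the midpoint was 49.9% in EV and 51.0% in K-KD. A stretch of 33.2 kb, from 1892963 to 1926185, held no peak in any list. Of the 16 EV regions, K-KD shared 3, K non-rep KO 4 and K rep KO 7, and 8 were in EV alone. In the genome these lists shared 35.1%, 35.5% and 39.1% of EV regions. Regions in EV alone were 8 of all 23 in NSD2 and 23.7% of those in the genome.

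Every list but WT shared 2 NSD2 regions. At 1875628 to 1876062 the fold was 6.25 in EV, 3.99 in K non-rep KO, 5.28 in K rep KO and 5.24 in K-KD. At 1977988 to 1979957 it was 3.08, 3.71, 4.91 and 3.85 in that order. The peaks in the 3′ flank (1982828 to 1984070, in EV and both knockout lists) lie inside NELFA, which encodes a subunit of the negative elongation factor, and cannot be ascribed to NSD2 alone. Just past the 2 kb edge, and so not counted, lay an EV peak 373 bp further on (fold 2.94), a K rep KO peak at 661 bp (fold 5.22), a K-KD peak at 1269 bp (fold 3.60) and a WT peak at 2091 bp (fold 4.20). The NSD2 start window is the most CpG-dense of the family, with 63 CpG and 86.7% G and C, and it is shown because the nearest peak of any list lay 3360 bp away.
NSD2 chr4:1871143-1871442 (plus strand): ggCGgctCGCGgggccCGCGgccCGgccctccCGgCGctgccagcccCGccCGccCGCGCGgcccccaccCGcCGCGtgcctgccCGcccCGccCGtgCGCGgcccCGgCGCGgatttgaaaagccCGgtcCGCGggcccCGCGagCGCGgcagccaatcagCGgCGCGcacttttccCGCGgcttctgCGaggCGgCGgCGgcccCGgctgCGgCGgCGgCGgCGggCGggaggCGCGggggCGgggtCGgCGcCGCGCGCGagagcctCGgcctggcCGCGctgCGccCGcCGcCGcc

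NSD3 (gene ID 54904), a further dimethyltransferase of the family, spans 112568 bp from 38269704 to 38382271 on chromosome 8. It held 8 peaks in EV, 3 in K rep KO, 2 in K non-rep KO, 2 in K-KD and 0 in WT. EV was the high list, and 75.1% of like-length genes had fewer peaks there. The share was 58.7% in K rep KO, 47.0% in K-KD and 44.0% in K non-rep KO. Its 10 regions included none found in 4 or 5 lists, and 5 were in EV alone. Of the regions in the genome, 6.09% were in 4 lists, 7.97% in 5 and 23.7% in EV alone. Its highest fold was 6.97 in EV, 4.45 in K non-rep KO, 5.80 in K rep KO and 5.56 in K-KD. As in NSD2, a long stretch without any peak (29.3 kb, from 38343201 to 38372459) crossed the gene.

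**Figure D2:**
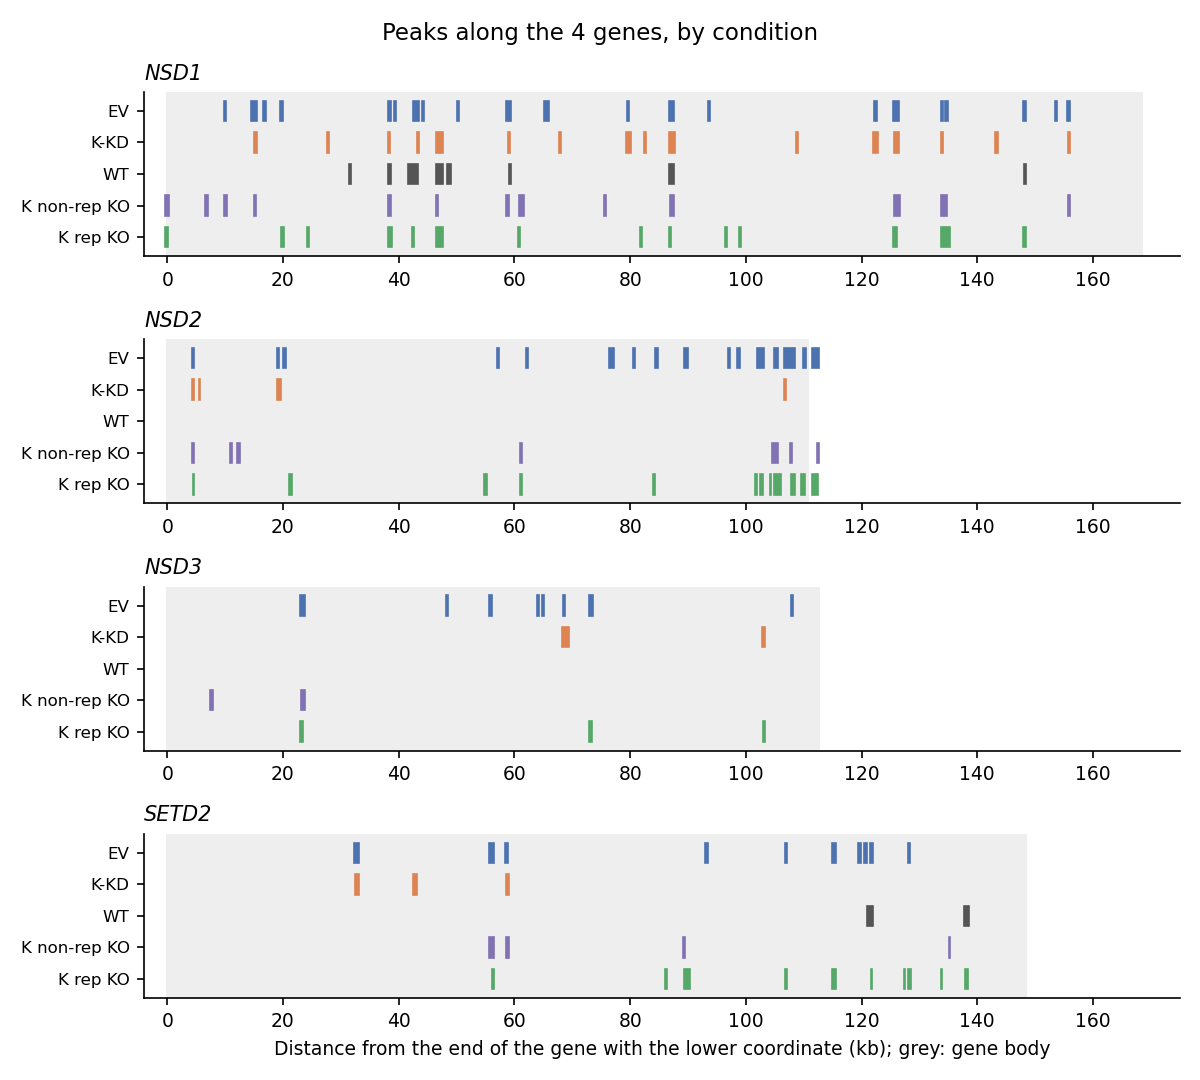
Peaks along each gene in the 5 lists, with distance in kb from the gene's end of lower coordinate on the horizontal axis and a row for each list. WT is blank in NSD2 and NSD3, and the blank stretch of 33.2 kb in NSD2 runs through all rows.

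The first comparison set the knockdown beside EV, which the design text names just before it. Every member had a lower number under the knockdown than in EV, with a summed ratio of 0.455 (95% interval 0.271 to 0.742). NSD2 had 4 peaks against 16, a ratio of 0.25 (0.0608 to 0.775). SETD2 had 3 against 10, a ratio of 0.30 (0.0531 to 1.17). NSD3 had 2 against 8, a ratio of 0.25 (0.0259 to 1.25), and NSD1 16 against 21, a ratio of 0.762 (0.372 to 1.53). Of these 4 intervals that of NSD2 lay wholly below 1, but relative to coding genes it ran from 0.104 to 1.32. All coding genes together had a ratio of 0.587, so relative to them the members stood at 0.783 (0.462 to 1.26), an interval that includes 1.

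With 1 peak added to both numbers, NSD2, NSD3 and SETD2 were at least 2-fold lower in K-KD, and so were 31.3% of the 6073 coding genes counted, which had 5 or more peaks over the pair of lists. The members' log2 differences were −1.77 for NSD2, −1.58 for NSD3, −1.46 for SETD2 and −0.37 for NSD1, against a coding median of −0.58. NSD2 was lower than all but 5.65% of the genes counted. In the DNA within 500 kb around NSD2, K-KD had 109 peaks against 178 in EV, a ratio of 0.612 (0.478 to 0.782). The gene's own interval overlaps that of its surroundings. Among stronger peaks NSD2 had 2 in K-KD and 5 in EV at −log10 q of at least 5, and 3 and 10 at a fold of at least 4. With EV cut to the length of K-KD, NSD2 had 4 in K-KD and 11 in EV. When each list was held to its 30732 best peaks by q, the order was the opposite, with 3 in K-KD and 2 in EV. That cut kept peaks down to −log10 q 3.43 in K-KD and 5.70 in EV, and the cause of the reversal was not tested. Among peaks with −log10 q of at least 5, NSD1 had 3 in K-KD and 12 in EV.

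The knockouts were set beside WT, and since both comparisons share that single list, their agreement is no result. K rep KO held more peaks than WT in all 4 members: 12 against 0 in NSD2, 10 against 2 in SETD2, 14 against 8 in NSD1 and 3 against 0 in NSD3. For SETD2 the ratio was 5.00 (1.07 to 46.9) and for NSD1 1.75 (0.685 to 4.81). Relative to coding genes the SETD2 interval ran from 0.444 to 19.6. For NSD2 no fold or interval is given against WT, since its numbers there chose the family. NSD2 and SETD2, of 3 members with enough peaks, were at least 2-fold higher by the same rule, as were 48.5% of 3443 coding genes. Summed, the ratio was 3.90 (1.91 to 8.76), against 2.40 for all coding genes, and the relative ratio was 1.57 (0.797 to 3.65). The sum includes the NSD2 values that chose the family. With both lists at 30732 peaks, NSD2 had 6 in K rep KO and 0 in WT.

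K non-rep KO held 7 peaks against 0 in NSD2, 4 against 2 in SETD2, 13 against 8 in NSD1 and 2 against 0 in NSD3. For NSD1 the ratio was 1.63 (0.624 to 4.52) and for SETD2 2.00 (0.287 to 22.1). NSD2 alone of 3 members was at least 2-fold higher, as were 44% of 3235 coding genes, a share near that of the members. The 0 of NSD2 in WT is among the values that chose the family. The summed ratio was 2.60 (1.21 to 6.04), and relative to coding genes 1.16 (0.558 to 2.78). With −log10 q of at least 5 the order was the opposite, with 7 member peaks in WT but 3 in K non-rep KO, and NSD2 had 0 in both.

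**Figure D3:**
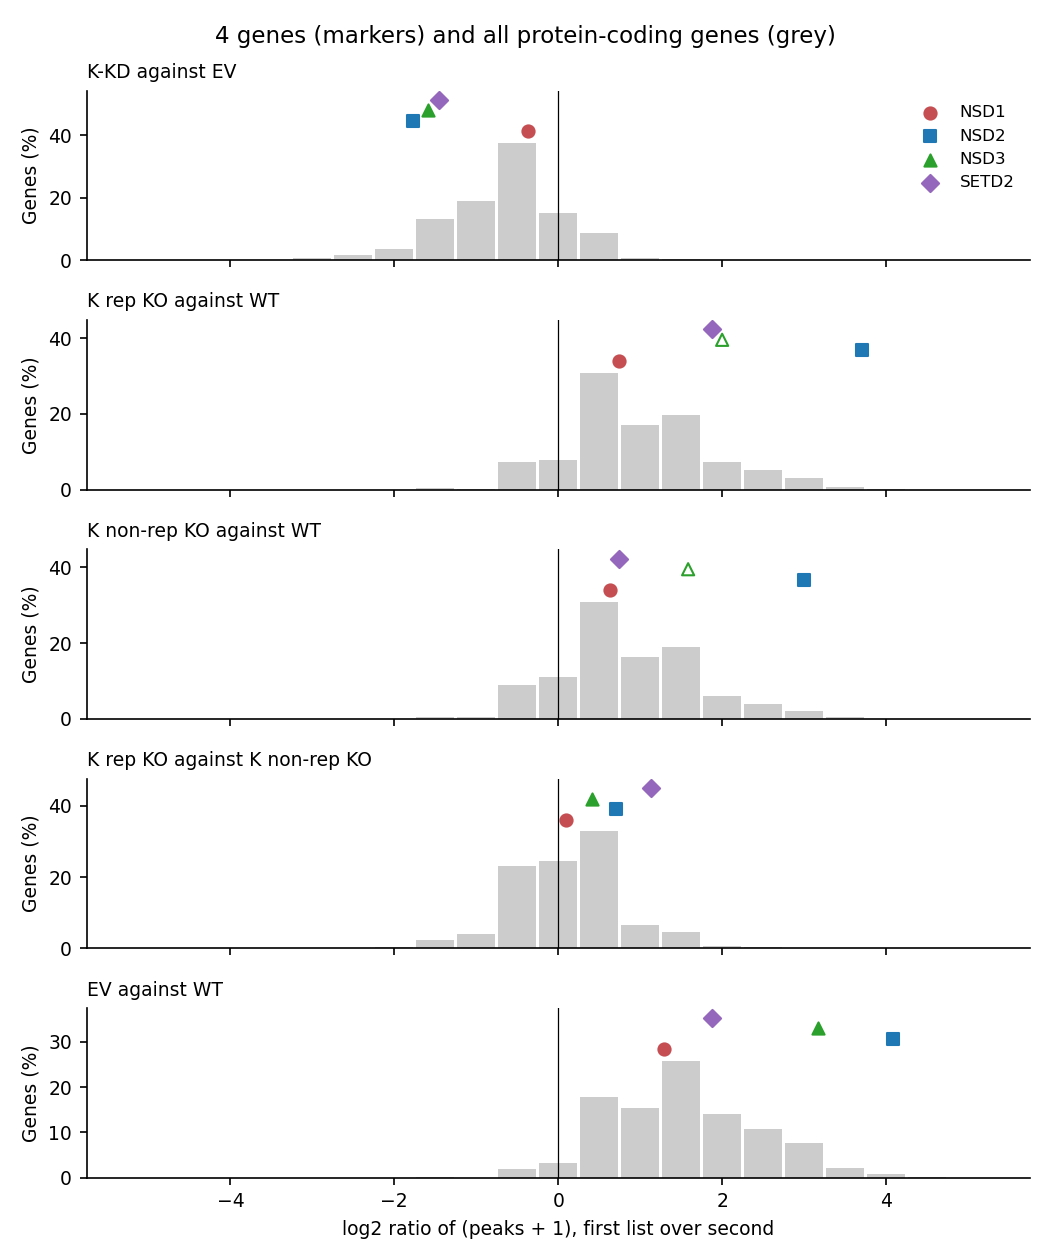
Log2 ratio of (peaks + 1) in the 5 comparisons, with markers for the members (their height carries no value) above a grey histogram of the percent of coding genes that held 5 or more peaks over the pair of lists. Open markers are members under that minimum. NSD2 is the member farthest from the coding median in the comparisons with WT. That place is no result, since the WT number of NSD2 helped choose the family.

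In raw sums the smallest difference was that between the knockouts, though not relative to coding genes. K rep KO held 14 peaks and K non-rep KO 13 in NSD1, 12 and 7 in NSD2, 3 and 2 in NSD3, and 10 and 4 in SETD2. The ratio was 1.71 (0.622 to 5.14) for NSD2 and 2.50 (0.721 to 10.9) for SETD2, both intervals including 1. The 12 peaks of NSD2 in K rep KO helped choose the family, so its ratio is a description alone, and every sum below includes NSD2. SETD2 was at least 2-fold higher by the rule, as were 10.1% of 4651 coding genes. The summed ratio of 1.50 (0.890 to 2.57) stood at 1.35 (0.807 to 2.33) relative to coding genes. With a fold of at least 4 the numbers were 24 and 15, or 1.38 relative to coding genes (0.703 to 2.86). With lists of the same length the relative ratio was 1.31 (0.764 to 2.28). With every list held to its 30732 best peaks by q, a cut chosen after the data were seen, the numbers were 23 and 12. That is 1.95 relative to coding genes (0.951 to 4.39). Under the q limit the gap was widest. With −log10 q of at least 5, K rep KO kept 18 member peaks and K non-rep KO 3, which is 4.08 relative to coding genes (1.35 to 24.6). The K non-rep KO library was the shallowest, and the median number of reads at the summits of its member peaks was 9 against 12 in K rep KO. The part of this depth in the gap was not tested.

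The raw sums differed most between the controls, whose lists also differed most in length. EV held 21 peaks and WT 8 in NSD1, 16 and 0 in NSD2, 8 and 0 in NSD3, and 10 and 2 in SETD2. The ratio was 2.63 (1.12 to 6.85) for NSD1 and 5.00 (1.07 to 46.9) for SETD2, and the interval began at 1.71 for NSD3. All coding genes together had a ratio of 3.82. Relative to them NSD1 stood at 0.662 (0.292 to 1.79) and SETD2 at 1.10 (0.279 to 12.3). The relative interval of NSD3 began at 0.446. All 4 members were at least 2-fold higher in EV, as were 73.5% of 4964 coding genes, so the direction is that of most genes. The summed ratio was 5.50 (2.78 to 12.1), and relative to coding genes 1.38 (0.726 to 3.17). Both the sum and the count of members called include NSD2, whose 0 in WT helped choose the family. With both lists at 30732 peaks the numbers of NSD2 were 2 and 0. Set beside EV rather than WT, both knockouts held fewer member peaks in sum.

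The heights of the peaks varied less than their number. The authors' fold at member peaks had a median of 4.52 in EV, 4.50 in K rep KO, 4.17 in K non-rep KO, 4.21 in K-KD and 5.31 in WT. WT had the highest median, from 10 peaks of which 8 were in NSD1, whereas over all peaks its median of 4.08 was the lowest of the 5 lists. For NSD1 alone the medians were 4.95, 4.99, 4.25, 4.25 and 5.31, and for SETD2 4.48, 4.01, 5.61, 3.46 and 6.10 in the same order. The SETD2 median in WT came from 2 peaks. NSD2, with no WT peak, had medians of 4.50 in EV, 3.99 in K non-rep KO, 4.26 in K rep KO and 4.72 in K-KD. Few reads lay behind each value, with medians of 9 to 15 reads at the summit and a lowest value of 6.

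**Figure D4:**
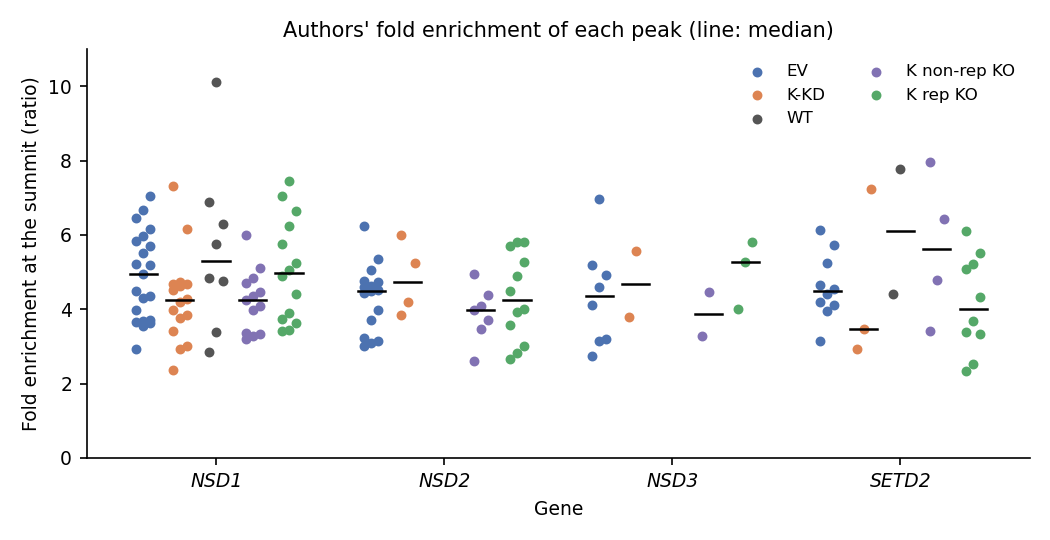
The authors' fold enrichment (vertical axis) of every member peak by gene and list, with bars at the medians. The highest point is the WT peak of NSD1 at 10.1.

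Joined across lists, the 155 peaks made 85 regions, of which 47 were in 1 list and 38 in at least 2. The shares in 1 list were 55.3% in the members and 56.5% in the genome. Regions in all 5 lists made up 2.35% in the members (2 of 85, both in NSD1) and 7.97% in the genome (11493 of 144156). The 23 NSD2 regions could not be among them, since the empty WT list of NSD2 helped choose the family. The commonest pattern was a peak in EV alone, with 22 regions, or 25.9% against 23.7% in the genome. EV together with K rep KO and no other list gave 8 regions, or 9.41% against 4.63%. Of these 8, 3 lay in NSD2, whose numbers in K rep KO and WT chose the family. Of the 53 EV regions in the members, K rep KO shared 21 (39.6%) and K-KD 16 (30.2%), against genome shares of 39.1% and 35.1%. Of the 38 K rep KO regions, 9 (23.7%) were shared by K-KD, against 43.1% in the genome. In NSD2, where EV and K rep KO were both high, 7 regions were common to those lists, and in SETD2 5 were.

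Genes outside the family were ranked by likeness of peak number, as the sum over the 5 lists of the absolute differences. Nearest to NSD1 were RAB11FIP3 (22, 13, 14, 16 and 8 peaks, again from EV through K rep KO, K non-rep KO and K-KD to WT; summed difference 3), MGRN1 (5) and TULP4 (6). Nearest to NSD2 were LOC400499 (15, 11, 7, 6 and 1 peaks; difference 5), WDR86 (5) and PEPD (6). NSD3 had closer matches, and SFXN5, MVP and CLTB were among 4 genes that differed by 1. Nearest to SETD2 were EVI5L (10, 11, 4, 3 and 0 peaks; difference 3), PRR14L (4) and KDM6A (4), and 8 genes in all lay within 4. Ties were ordered by likeness of region length. Genes with the NSD2 pattern, high in EV and near 0 in WT, were therefore found outside the family.

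Other genes of the H3K36 pathway were taken as fixed lists. Between K-KD and EV, the 4 other H3K36 writers had fewer peaks in 3 and the same in 1. ASH1L, a dimethyltransferase of developmental genes, had 15 in K-KD and 24 in EV. The 7 demethylases had fewer in 5 and the same in 2, with 66 peaks against 127. KDM4B, which removes the trimethyl marks of lysine 9 and lysine 36, had 32 against 59. The 15 readers had more in 2, fewer in 7 and the same in 6, and DNMT3A had 10 against 20. At least 2-fold lower by the rule were 2 of 5 demethylases and 1 of 8 readers with enough peaks, against 3 of 4 members and 31.3% of coding genes. The median log2 difference was −0.92 in the demethylases, −0.22 in the readers and −1.52 in the members, against −0.58.

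Partners and opposing enzymes were counted in the same way. The 3 elongation partners of SETD2 had fewer peaks in 1 and the same in 2, with 4 and 4 in SUPT6H, the histone chaperone of elongating polymerase. The 4 core genes of PRC2, the H3K27 methyltransferase complex whose activity H3K36 methylation hinders, had more in 1, fewer in 1 and the same in 2. SUZ12, a PRC2 subunit, had 5 in K-KD and 7 in EV. All 6 H3K4 methyltransferase genes had fewer peaks in K-KD, 32 against 61 in sum, and 3 of the 6 were at least 2-fold lower. Between EV and WT, 6 of 6 H3K4 genes, 6 of 7 demethylases, 12 of 15 readers and 3 of 4 other writers held more peaks in EV. All coding genes together held 3.82 times as many peaks in EV as in WT. At least 2-fold higher by the rule were 6 of 6 H3K4 genes, 5 of 5 demethylases and 5 of 6 readers with enough peaks. The 1 other writer with enough peaks was also higher, as were 73.5% of coding genes. Between K rep KO and WT, 10 of 15 readers, 5 of 7 demethylases and 5 of 6 H3K4 genes held more peaks in the knockout. At least 2-fold higher were 3 of 4 readers, 1 of 4 demethylases and 2 of 4 H3K4 genes with enough peaks, against 48.5% of coding genes. SETD1A, an H3K4 methyltransferase, had 13 peaks in EV and 0 in WT, beside 16 and 0 in NSD2. Between EV and WT the elongation partners held more in 2 of 3, and the PRC2 core held more in 2, fewer in 1 and the same in 1.

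**Figure D5:**
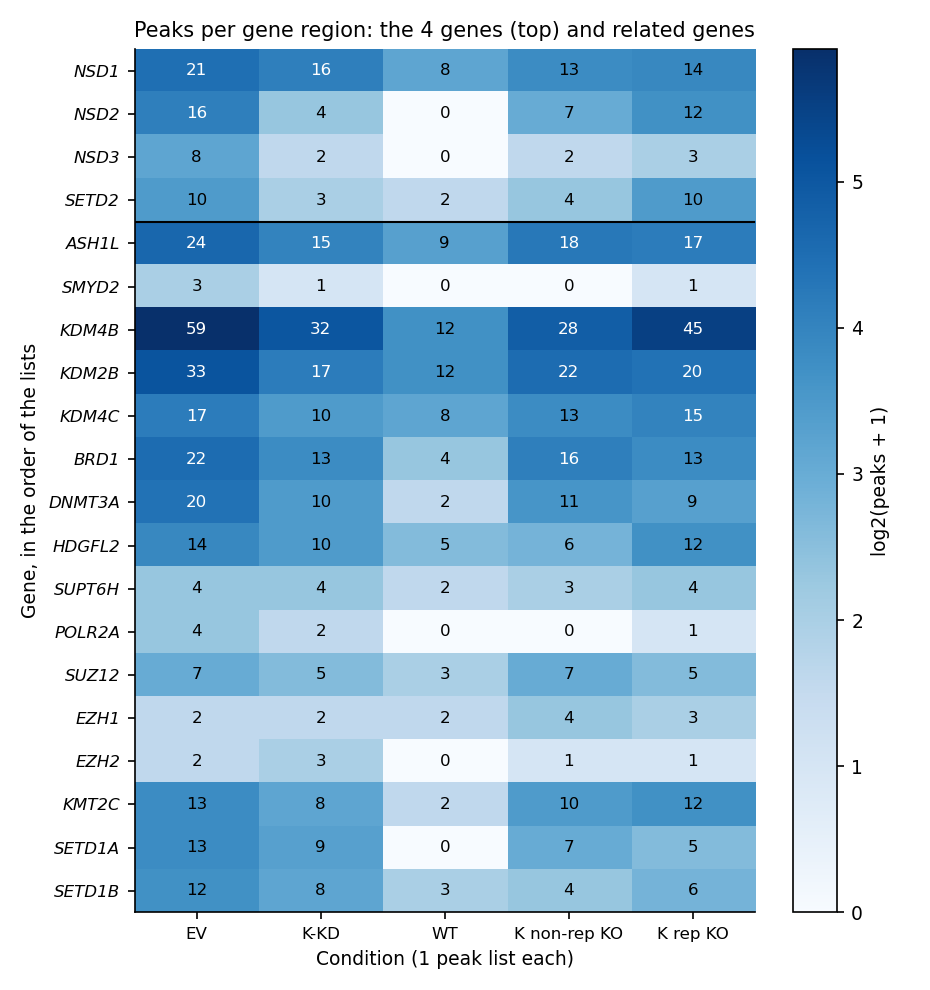
Heat map of peak numbers, with genes as rows (the 4 members above the line, the named genes of the 6 related lists under it) and the 5 lists as columns, coloured by log2(peaks + 1). KDM4B holds the most peaks, 59 in EV, and NSD2, NSD3, SMYD2, POLR2A, EZH2 and SETD1A show 0 in WT.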

How the data were processed

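MeDIP-seq peaks were analysed in 5 conditions of HEK293T cells, each with 1 immunoprecipitated and 1 input library. Bowtie2, MACS2, deepTools and GRCh38 are named per the submitters' processing notes; versions of tools and their settings were not given in the sources used here. Deposited lists give each peak's fold enrichment (a ratio over local background) and its −log10 p and −log10 q, all as the authors' peak caller wrote them. One further list, with 3 columns of values, matched no sample label and was not used. The file for K-KD stands for the sample labelled KD, and peak names inside the knockout lists carry other prefixes.

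Peaks on chromosomes 1 to 22 and X were counted for protein-coding genes (RefSeq coordinates) with 2 kb flanks, an overlap of 1 bp being enough. A gene was called where (peaks + 1) differed at least 2-fold and both lists together held at least 5 peaks. Ratios have exact 95% Clopper-Pearson intervals. Summit reads and relative depth were solved from fold and p within 0.001. Pairs follow the order of conditions in the design text and are not stated there. Start windows came from RefSeq promoters of GRCh38.p14, with 3 of 4 members matched. The text names the 4 members, the 3 genes nearest each in peak number, up to 3 genes with the most peaks in each related list, and genes overlapping a member. Members, lists and this rule were chosen with earlier results of these data known. Alternatives were other flanks, q and fold limits, overlaps, controls and list lengths. The counting was tested on simulated data. Python 3.11.15, pandas 2.3.3, numpy 2.4.6, scipy 1.17.1 and matplotlib 3.10.9 were used.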

Additional observations from a re-analysis of the deposited data

Results flagged for a closer look

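The summed peaks of NSD1, NSD2, NSD3 and SETD2 moved in opposite directions from their controls. The ratio was 0.455 in K-KD against EV, with 25 and 55 peaks, but 3.90 in K rep KO against WT, with 39 and 10, and 2.60 in K non-rep KO against WT, with 26 and 10. Every member was lower in K-KD than in EV and every member higher in both knockouts than in WT. The knockout values share the single WT list, so their agreement is no result, and they include the NSD2 numbers that chose the family. Beside EV, with 55 peaks, K-KD and both knockouts held fewer in sum, and beside WT, with 10, all of them held more. All coding genes together moved the same ways, at 0.587, 2.40 and 2.17, and relative to them the intervals of the 3 sums include 1. The difference between these comparisons was not tested, since each list is a single library and the 2 controls differ by a ratio of 5.50 between themselves.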

How the results depend on the processing

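Of 188 alternative ratios, 10 crossed 1. The summed relative ratio moved with a −log10 q limit of 5: to 0.289 in K non-rep KO against WT (3 and 7 peaks) and to 4.08 between the knockouts, K rep KO over K non-rep KO (18 and 3). NSD2 in K-KD against EV reversed when all lists were held to the WT length, an alternative chosen after seeing the data, with a (peaks + 1) ratio of 1.33 in place of 0.294. The cause was not tested. With EV cut to the length of K-KD, as planned, the NSD2 ratio was 0.417 and kept its direction. With the other control list, the relative ratios were 1.08 for K-KD, 1.14 for K rep KO and 0.840 for K non-rep KO. K non-rep KO against WT was 0.787 with a fold of at least 4 and 0.971 with lists of the same length, and EV against WT was 0.964 with −log10 q of at least 5. For NSD1, lists of the same length gave 1.06 in K-KD against EV and 0.889 in K non-rep KO against WT, and −log10 q of at least 5 gave 0.286 in the latter. Few reads per peak and 1 library per condition limit all values. No paired analysis was possible because each condition has 1 list.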

Other observations

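The peak density of each gene was set beside that of its surroundings, with no interval on these ratios and few peaks behind some of them. Per base, NSD1 held 0.937 times the peak density of its 500 kb on either side in EV and 1.21 times in K-KD. NSD2 held 0.783 times that of its surroundings in EV, 0.642 in K non-rep KO, 0.901 in K rep KO and 0.320 in K-KD. SETD2 held 0.820 times in EV, 0.469 in K-KD and 1.15 in K rep KO. In WT the DNA around NSD2 held 3.30 peaks per 100 kb and that around NSD3 2.00, while both genes held 0, a count that allows up to 3 peaks in each. For NSD2 that 0 is among the values that chose the family.

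Of the genes that overlap the members' regions, RAB24 beside NSD1, DDHD2 and PLPP5 beside NSD3 and KIF9-AS1 at the start of SETD2 held 0 of the counted peaks.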
